A study of Mus musculus with 7 samples.

Results

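Integrins are cell-surface adhesion receptors made of 1 alpha and 1 beta chain. The alpha chain largely sets the ligand, and the beta chain carries much of the link to the actin cytoskeleton. Microglia, the resident macrophages of the brain, are known for the beta 2 integrin CD11b/CD18 (Itgam with Itgb2) and for alpha v beta 5, while alpha 4 and alpha L integrins are best known from blood leukocytes. Described here are 10 integrin chain genes, namely Itga4, Itgal, Itgam, Itgax, Itgav and Itga6 among the alpha chains and Itgb1, Itgb7, Itgb2 and Itgb5 among the beta chains. They were taken by gene symbol out of 14594 gene rows. Itga4 was chosen by its scaled counts, which differed between the 2 groups, and the other chains were added around it as its partners and relatives. The differences between groups given for the 10 chains therefore describe these libraries and are not tests.

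RNA was sequenced from cortical microglia of C57BL/6 mice about 12 weeks old. Cells with tdTomato and GFP, called Hoxb8 microglia here, gave 3 libraries, and cells with GFP alone, called non-Hoxb8 microglia, gave 4. All mice carried the alleles Cx3Cr1GFP/+, Hoxb8IRES-Cre/+ and ROSA26CAG-LSL-tdTomato/+ and were untreated. A single copy of Cx3cr1 is therefore left in the cells of both groups. The tdTomato label marks descent from a cell in which Hoxb8 drove Cre, and does not show that Hoxb8 is still on. Microglia of both groups were captured on CD11b, the product of Itgam, before sorting. The labels name 4 animals for the 7 libraries without saying which libraries share an animal, so p-values measure the spread between these libraries only.

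Libraries held between 5915261 and 7741934 counts over gene rows. Xist, the RNA of the inactive X chromosome, and Y-linked RNA were both present in library 22 (Hoxb8 replicate 3) and in libraries 21 and 25 (non-Hoxb8 replicates 3 and 4), with Xist at 8291, 8537 and 14320 CPM (counts scaled to a common library total with TMM factors) and Ddx3y at 38.0, 25.2 and 28.5 CPM. Hoxb8 replicates 1 to 3 are libraries 6, 14 and 22, and non-Hoxb8 replicates 1 to 4 are libraries 5, 13, 21 and 25. Libraries 6 and 5 held Xist at 14950 and 22540 CPM, with Ddx3y at 0 and 0.137 CPM. Libraries 14 and 13 held Xist at 15.1 and 23.2 CPM, with Ddx3y at 128 and 98.8 CPM. The label of both groups as microglia was matched by the markers P2ry12 and P2ry13, both purinergic receptors. P2ry12 ranged from 8649 to 10640 CPM in Hoxb8 libraries and from 7243 to 10980 CPM in non-Hoxb8 libraries. P2ry13 ranged from 3373 to 4305 CPM in Hoxb8 libraries and from 3086 to 4236 CPM in non-Hoxb8 libraries.

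Across the 11874 genes that edgeR tested by quasi-likelihood, 4 were called higher in Hoxb8 microglia at an adjusted p below 0.05, which is 0.0337% of those tested, and 0 were called lower (0%). Of the 10 integrin chains, 1 was called higher, Itga4, and 0 were called lower. At an unadjusted p below 0.05, 231 of all tested genes were higher and 187 lower, with 2 and 0 of the chains among them, and DESeq2 called 1 chain higher, Itga4, and 0 lower (0.168% and 0.0337% of all tested genes). All 10 passed the filter on low counts, Itgal through its level in Hoxb8 libraries. Their median log2 fold change was -0.02, beside 0 over all genes tested, and 4 of the 10 lay above 0. In 2 chains, Itga4 and Itgal, every Hoxb8 library lay above every non-Hoxb8 library, and 2.48% of all tested genes did the same. In 1 chain, Itgav, every Hoxb8 library lay below, as in 2.08% of all tested genes.

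**Figure D1:**
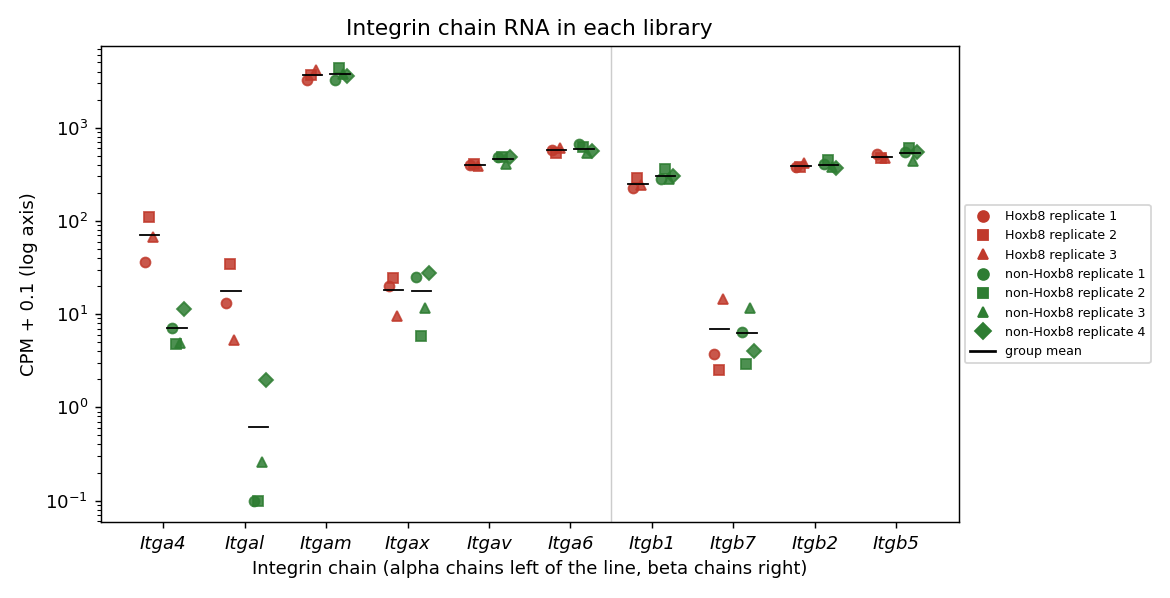
Level of each integrin chain in each library, as CPM plus 0.1 on a log axis, with Hoxb8 libraries left of non-Hoxb8 libraries and black bars for group means. Itga4 and Itgal stand apart between the groups, while Itgam, with means of 3698 CPM in Hoxb8 and 3747 CPM in non-Hoxb8 microglia, and the other abundant chains lie close together.

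Itga4 encodes the alpha 4 chain, which pairs with beta 1 in VLA-4 or with beta 7, and binds VCAM-1, fibronectin and, with beta 7, MAdCAM-1. Its level was 36.2, 110 and 66.3 CPM in Hoxb8 replicates 1 to 3, against 7.004, 4.71, 4.81 and 11.2 CPM in non-Hoxb8 replicates 1 to 4. Every Hoxb8 library was above every non-Hoxb8 library, with Hoxb8 replicate 2 the highest. Counts behind these levels were 271, 812 and 492 in Hoxb8 libraries and 51, 37, 30 and 65 in non-Hoxb8 libraries. The log2 fold change was 3.36 ± 0.42 (SE, n = 3 and 4, 95% interval from 2.47 to 4.24). In this bulk RNA, more cells of a type that expresses Itga4 and more Itga4 RNA per cell cannot be told apart.

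The call of Itga4 was lost without non-Hoxb8 replicate 1 (0 genes called), with libraries 13 and 14 left out (2 other genes called), with libraries 21, 22 and 25 left out (0 genes called) and in limma-voom (0 genes called). Its log2 fold change stayed between 2.74 and 3.68 in all 18 alternatives. With libraries of adjacent number taken as pairs, Hoxb8 over non-Hoxb8 log2 ratios for Itga4 were 2.37 for libraries 6 and 5, 4.54 for libraries 14 and 13 and 3.79 for libraries 22 and 21.

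Itga4, a protein-coding gene in GENCODE M21 (GRCm38), lies on the plus strand of chromosome 2 from 79255426 to 79333123. Its exons share 1124 bases, 8.04% of their length, with exons of Cerkl, a ceramide kinase-like gene on the minus strand. Reads without strand from that stretch cannot be told apart between them. Cerkl stood at 6.41, 0.810 and 0.674 CPM in Hoxb8 libraries and at 1.51, 0.382, 0.160 and 1.72 CPM in non-Hoxb8 libraries. It was highest in the Hoxb8 library with the lowest Itga4, and the groups overlapped. The part of Cerkl reads in the Itga4 counts was not tested.

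Promoter windows from RefSeq on GRCm38.p6 were matched for 7 of the 10 chains. Shown are the 250 bases before the start of Itga4, the chain that differed most clearly, and of Itgam, the most abundant chain, on their plus strands (chr2:79255176-79255425 and chr7:128062390-128062639). Capitals mark the motifs found.
Itga4: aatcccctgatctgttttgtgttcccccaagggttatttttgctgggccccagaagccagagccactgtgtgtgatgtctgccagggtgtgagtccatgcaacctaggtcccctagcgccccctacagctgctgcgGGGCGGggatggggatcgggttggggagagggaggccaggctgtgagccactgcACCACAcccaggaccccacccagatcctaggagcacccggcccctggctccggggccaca
Itgam: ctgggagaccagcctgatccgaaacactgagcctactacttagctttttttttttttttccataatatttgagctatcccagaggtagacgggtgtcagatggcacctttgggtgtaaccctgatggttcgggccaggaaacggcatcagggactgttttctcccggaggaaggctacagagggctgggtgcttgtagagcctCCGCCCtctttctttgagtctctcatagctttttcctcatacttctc

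Motifs were searched on both strands, and no motif overlaps another. A PU.1-type site, for the myeloid factor PU.1, was spelled GAGGAAGT. A RUNX site, for factors of blood cell development, was spelled TGTGGT. The GC box, bound by Sp1, was spelled GGGCGG. The Itga4 window held a GC box 114 bases before the start and a RUNX match, read on the other strand, 60 bases before it. The Itgam window held a GC box on the other strand, 47 bases before the start. Of 32851 mouse promoter windows, 32.7% held the GC box, 14% the RUNX letters and 2.4% the PU.1-type letters. GC content was 64.0% in the Itga4 window and 49.6% in the Itgam window, beside a median of 52.4% over all windows. A match describes letters only.

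Itgal encodes the alpha L chain, which with beta 2 forms LFA-1, the leukocyte receptor for ICAM-1. Its level was 13.1, 34.7 and 5.12 CPM in Hoxb8 replicates 1 to 3, against 0, 0, 0.160 and 1.89 CPM in non-Hoxb8 replicates 1 to 4. The groups did not overlap, and the lowest Hoxb8 library stood closer to non-Hoxb8 replicate 4 than to Hoxb8 replicate 2. The non-Hoxb8 libraries held 0, 0, 1 and 11 Itgal counts, against 98, 257 and 38 in Hoxb8 libraries. A count of 0 allows up to 3 counts, or 0.412 CPM in non-Hoxb8 replicate 1 and 0.382 CPM in non-Hoxb8 replicate 2. Against that limit per library, Itgal was at least 31.8-fold higher in library 6 than in library 5, and at least 90.8-fold higher in library 14 than in library 13.

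The log2 fold change of Itgal was 5.15 ± 1.19 (SE, n = 3 and 4, 95% interval from 2.55 to 7.76). It was not called in edgeR or DESeq2 without pairs. With the library pairs in the fit, both called Itgal and Itga4 higher, against 0.362% of all tested genes called higher in edgeR and 0.413% in DESeq2. In edgeR with pairs its log2 fold change was 7.91 ± 1.09 (SE), a fit in which library 25 (non-Hoxb8 replicate 4) adds nothing to the difference between groups. Without non-Hoxb8 replicate 4, the library with 11 of the 12 non-Hoxb8 counts, edgeR called Itgal also without pairs, and its log2 fold change was 8.09. Itgal lies on the plus strand of chromosome 7 from 127296260 to 127335138, and no other M21 gene overlaps it.

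The other beta 2 chains had log2 fold changes whose intervals included 0. Itgam, the CD11b chain of complement receptor 3, stood at 3259, 3636 and 4200 CPM in Hoxb8 libraries, against 3232, 4407, 3804 and 3546 CPM in non-Hoxb8 libraries. The groups overlapped over most of their range, and the cells had been captured on this protein. Its log2 fold change was -0.02 ± 0.14 (SE, 95% interval from -0.32 to 0.28). Itgb2, the CD18 chain that alpha L, alpha M and alpha X share, stood at 374.5, 379.3 and 420.0 CPM in Hoxb8 libraries, against 403.7, 450.3, 375.4 and 366.5 CPM in non-Hoxb8 libraries. The groups again overlapped, with a log2 fold change of -0.03 ± 0.15 (SE, 95% interval from -0.35 to 0.29).

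Itgax, the CD11c chain of dendritic cells and activated microglia, stood at 20.04, 24.6 and 9.44 CPM in Hoxb8 libraries, against 25.0, 5.73, 11.6 and 27.3 CPM in non-Hoxb8 libraries. Both groups spread over a wide range, and the log2 fold change was 0.05 ± 0.52 (SE, 95% interval from -1.04 to 1.15). The interval is too wide to set aside a difference of 1 on the log2 scale in either direction. Itgam (from 128062640 to 128118491) and Itgax (from 128129547 to 128150657) are neighbours on chromosome 7. They are paralogs of Itgal, and reads shared between them could be split in ways the deposited counts do not show. Itgam also overlaps a predicted gene in M21, Gm49368, so that part of its reads could belong to that gene.

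The 2 beta chains that pair with alpha 4 had log2 fold changes whose intervals included 0. Itgb1, which pairs with many alpha chains including alpha 4 and alpha 6, stood at 223, 286 and 243 CPM in Hoxb8 libraries, against 281.5, 364, 279 and 300.0 CPM in non-Hoxb8 libraries. Of the Hoxb8 libraries, only replicate 2 reached into the non-Hoxb8 range. The log2 fold change was -0.29 ± 0.17 (SE, 95% interval from -0.65 to 0.07). Itgb7, the partner of alpha 4 in gut-homing lymphocytes, stood at 3.61, 2.43 and 14.6 CPM in Hoxb8 libraries, against 6.32, 2.80, 11.4 and 3.95 CPM in non-Hoxb8 libraries. The highest level of each group was in library 22 for Hoxb8 and library 21 for non-Hoxb8, which have adjacent numbers. Its log2 fold change was 0.17 ± 0.73 (SE, 95% interval from -1.38 to 1.72), and without Hoxb8 replicate 3 it was -1.01.

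Itgav, the alpha v chain that binds vitronectin and latent TGF-beta, stood at 400.3, 403.5 and 388 CPM in Hoxb8 libraries, against 481, 479.9, 410.0 and 481 CPM in non-Hoxb8 libraries. Hoxb8 libraries lay below all non-Hoxb8 libraries, by a small gap to non-Hoxb8 replicate 3. The log2 fold change was -0.22 ± 0.14 (SE, 95% interval from -0.53 to 0.09), and it was not called. Its partner Itgb5 stood at 525, 467 and 469.9 CPM in Hoxb8 libraries, against 547.5, 602.5, 437 and 547 CPM in non-Hoxb8 libraries. These groups overlapped, with a log2 fold change of -0.13 ± 0.15 (SE, 95% interval from -0.46 to 0.19).

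Itga6, a laminin-binding chain that pairs with beta 1 or beta 4, stood at 572.5, 531 and 608 CPM in Hoxb8 libraries, against 667, 626.5, 530.1 and 561 CPM in non-Hoxb8 libraries. The Hoxb8 libraries lay within the non-Hoxb8 range. Its log2 fold change was -0.06 ± 0.15 (SE, 95% interval from -0.37 to 0.25). Itga6 (from 71745616 to 71858416) and Itgav (from 83724397 to 83806916) lie on chromosome 2 like Itga4, and both overlap predicted genes or pseudogenes in M21, so that part of their reads could belong to those.

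**Figure D2:**
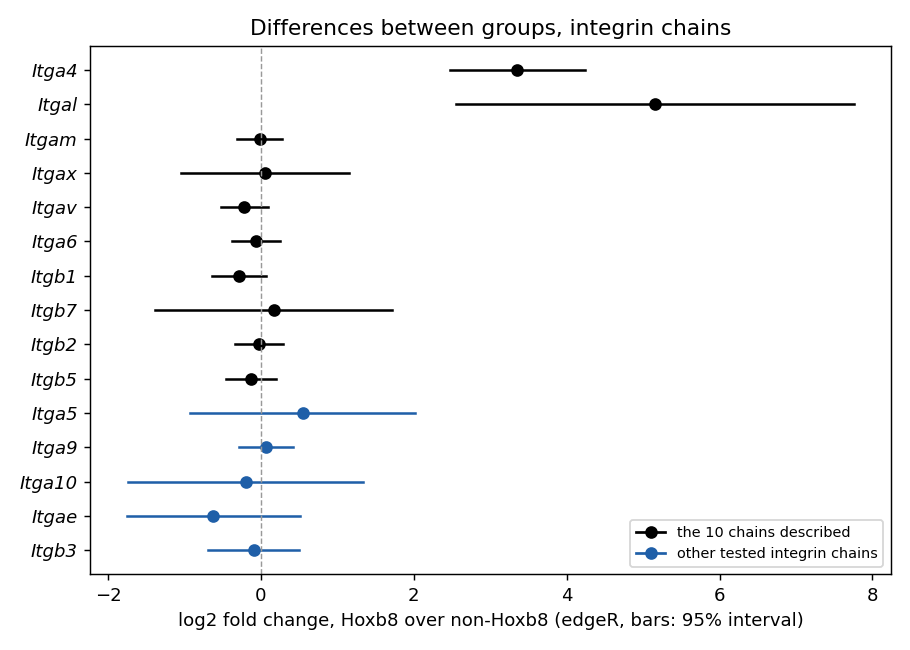
Log2 fold change of Hoxb8 over non-Hoxb8 microglia from edgeR, with 95% intervals, for the 10 integrin chains (black) and the 5 other tested integrin chains (blue). The intervals of Itga4 and Itgal lie above 0 and those of the 13 other chains include 0.

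The spread between libraries separated the chains as well. The biological coefficient of variation that edgeR estimated, at 0.46 in common over all genes, was between 0.211 and 0.222 for Itgb1, Itgam, Itgb2, Itgav, Itgb5 and Itga6, which put them among the 3.5% of tested genes with the smallest values. It was 0.381 for Itga4, 0.485 for Itgax, 0.662 for Itgb7 and 0.925 for Itgal. The value of Itgal was at the 95.1th percentile of tested genes. The 6 chains of low spread were also those of high level, at or above the 94.8th percentile of mean CPM, while the other 4 lay between the 20.8th and the 59.2nd.

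Levels were compared between chains as CPM per kilobase of annotated exon, a level and not a difference. Itgam was the highest in all 7 libraries, at 736 ± 94.3 in Hoxb8 microglia (SD, n = 3) and 746 ± 99.2 in non-Hoxb8 microglia (SD, n = 4). In non-Hoxb8 microglia it was followed by Itgb5 (150 ± 19.5), Itgb2 (131 ± 12.4), Itgb1 (75.0 ± 9.76), Itga6 (66.1 ± 6.85) and Itgav (43.1 ± 3.29). A wide gap followed, and Itgax (3.62 ± 2.17), Itgb7 (2.21 ± 1.38), Itga4 (0.495 ± 0.216) and Itgal (0.0780 ± 0.140) were the lowest. In non-Hoxb8 libraries the neighbours Itgb5 and Itgb2, Itgb1 and Itga6, and Itgax and Itgb7 overlapped, and the other neighbours in this order did not.

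In Hoxb8 microglia Itga4, at 5.06 ± 2.64 CPM per kilobase (SD, n = 3), was 7th of the 10 chains by group mean and 8th, 7th and 8th in replicates 1 to 3. It was 9th in each of the 4 non-Hoxb8 libraries. Itgax (3.75 ± 1.62), Itgal (2.68 ± 2.33) and Itgb7 (2.48 ± 2.42) came after it, and each of these neighbours overlapped with the next. The rank of Itga4 in Hoxb8 microglia was again 7 when the longest transcript was used for length, while Itga6 moved to 3rd. Alpha 4 RNA stayed far below that of its beta 1 partner in every library. The ratio of Itga4 to Itgb1 per kilobase was 0.0473, 0.112 and 0.0798 in Hoxb8 libraries and 0.00726, 0.00378, 0.00504 and 0.0109 in non-Hoxb8 libraries. Against beta 7 the ratio was 1.99, 8.94 and 0.903 in Hoxb8 libraries and 0.220, 0.333, 0.0837 and 0.560 in non-Hoxb8 libraries.

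Among the 3 beta 2 alpha chains described here, Itgal made up 0.304%, 0.719% and 0.0930% of the summed level per kilobase in Hoxb8 libraries and at most 0.0404% in non-Hoxb8 libraries. The ratio of Itgam to Itgb2 was 5.73 ± 0.403 in Hoxb8 microglia (SD, n = 3) and 5.71 ± 0.577 in non-Hoxb8 microglia (SD, n = 4). The ratio of Itgav to Itgb5 was 0.270 ± 0.0169 in Hoxb8 microglia (SD, n = 3) and 0.289 ± 0.0192 in non-Hoxb8 microglia (SD, n = 4).

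**Figure D3:**
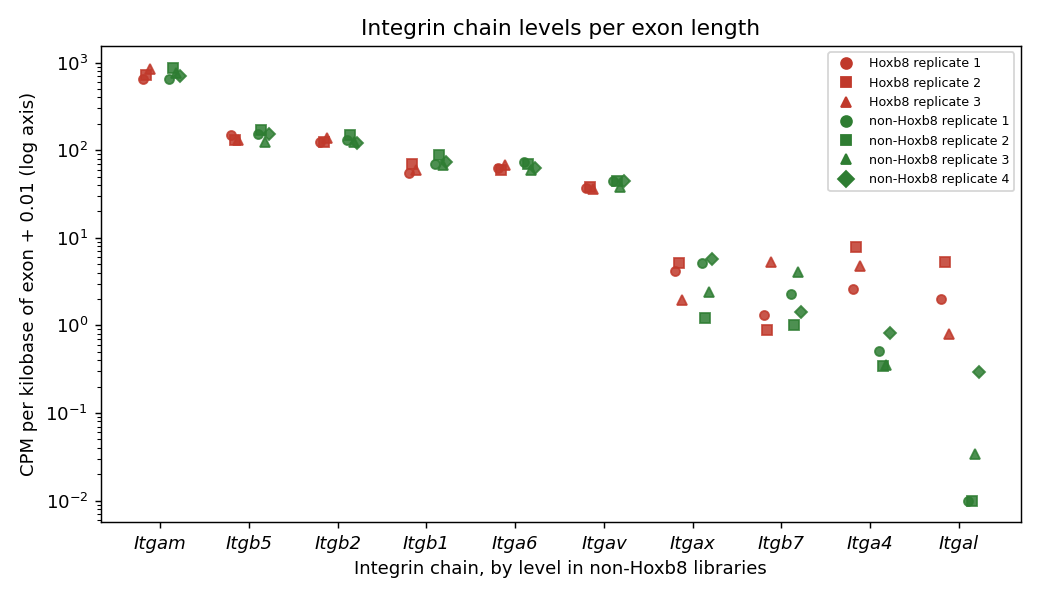
Level of each integrin chain per exon length in each library, as CPM per kilobase plus 0.01 on a log axis, ordered by level in non-Hoxb8 libraries. Itgam leads in all 7 libraries, and Itga4 and Itgal rank 9th and 10th in non-Hoxb8 microglia.

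Of 17 other integrin chains, 11 had a row in the table and 5 were tested, of which 0 were called in either direction by edgeR, with or without pairs, or by DESeq2, and 0 had an unadjusted p below 0.05. Itga9, the closest relative of alpha 4, was the most abundant of them, at 424, 390.5 and 329.8 CPM in Hoxb8 libraries and 433, 303, 349 and 374 CPM in non-Hoxb8 libraries (log2 fold change 0.06 ± 0.17, SE). Itgb3, a partner of alpha v, had a log2 fold change of -0.10 ± 0.28, and Itgae, a partner of beta 7, one of -0.63 ± 0.53. Itga10, a collagen-binding chain, had a log2 fold change of -0.20 ± 0.72. Itga5, the fibronectin receptor chain, stood at 50.2, 123 and 35.2 CPM in Hoxb8 libraries and 29.8, 102, 35.1 and 22.7 CPM in non-Hoxb8 libraries (log2 fold change 0.55 ± 0.63, SE). Its highest value in each group was in libraries 14 and 13. Itga1, Itga2, Itga2b, Itgad, Itgb4 and Itgb8 had too few counts to be tested.

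Genes of integrin ligands, activation, signalling and membrane partners were counted in 4 further lists. Of 15 tested ligand genes, 26 activation and linkage genes and 23 signalling genes, 0 were called in either direction by edgeR, with or without pairs, or by DESeq2, and 0 had an unadjusted p below 0.05. Their median log2 fold changes were 0.11, 0.01 and -0.02. Vcam1, the alpha 4 ligand of activated endothelium, stood at 12.96, 71.4 and 5.66 CPM in Hoxb8 libraries and 7.55, 32.5, 11.4 and 13.6 CPM in non-Hoxb8 libraries, highest in libraries 14 and 13. The most abundant ligand genes were the junctional adhesion molecules F11r and Jam2 and Nrros, which holds latent TGF-beta, with log2 fold changes of -0.20 ± 0.20, 0.13 ± 0.19 and 0.04 ± 0.17. Among activation genes Apbb1ip, an adaptor between Rap1 and talin, had a log2 fold change of -0.15 ± 0.14, Lims1 one of 0.19 ± 0.16 and Rap1b one of 0.01 ± 0.18. Among signalling genes the kinase Lyn, the adaptor Fcer1g and the GTPase Rac1 had -0.04 ± 0.18, 0.07 ± 0.20 and 0.17 ± 0.16.

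Of 12 membrane partner genes, 0 were called by edgeR without pairs, with 1 at an unadjusted p below 0.05. DESeq2 and edgeR with pairs each called 1 higher, Cd36, beside 0.168% and 0.362% of all tested genes. Cd36, a scavenger receptor that associates with integrins, stood at 12.4, 53.05 and 13.6 CPM in Hoxb8 libraries, against 0.137, 4.97, 0.802 and 5.496 CPM in non-Hoxb8 libraries. The groups did not overlap, while the median log2 fold change of the list was -0.02. The tetraspanins Cd53 and Cd81 and the CD98 heavy chain Slc3a2 were the most abundant and had log2 fold changes of 0.19 ± 0.15, -0.08 ± 0.13 and -0.01 ± 0.21.

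Levels of markers of other myeloid cells are set beside those of Itga4 and Itgal. The summed level of 10 border macrophage markers was 428, 851 and 205 CPM in Hoxb8 libraries and 60.4, 137, 33.8 and 202 CPM in non-Hoxb8 libraries, so that the groups were separated by a small gap. In edgeR 0 of the 10 were called without pairs (8 at an unadjusted p below 0.05) and 6 with pairs, and DESeq2 called 3. Of all 11874 tested genes, edgeR called 0.0337% higher without pairs and 0.362% with pairs, and DESeq2 0.168%. At an unadjusted p below 0.05 in edgeR without pairs, 231 of them were higher and 187 lower. The same shares apply to the marker lists that follow. All 10 had a log2 fold change above 0, beside 50% of all tested genes. The mannose receptor Mrc1 stood at 175, 437 and 114 CPM in Hoxb8 libraries and 37.8, 76.9, 25.0 and 106 CPM in non-Hoxb8 libraries. The hyaluronan receptor Lyve1 and F13a1, a coagulation factor subunit of macrophages, had log2 fold changes of 2.46 ± 1.27 and 2.64 ± 0.88. Among Hoxb8 libraries the summed level was lowest in replicate 3, where Itga4 was second highest and Itgal lowest. Among non-Hoxb8 libraries the summed level was highest in replicate 4, as were Itga4 and Itgal.

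The summed level of the 8 monocyte markers with a row was 305, 862 and 241 CPM in Hoxb8 libraries and 146, 455, 120 and 182 CPM in non-Hoxb8 libraries, and the groups overlapped. Of 6 tested, 0 were called by edgeR without pairs (4 at an unadjusted p below 0.05), 1, the lysozyme Lyz2, with pairs, and 3 by DESeq2. All 6 had a log2 fold change above 0, beside 50% of all tested genes. The chemokine receptor Ccr2 stood at 53.2, 44.0 and 34.9 CPM in Hoxb8 libraries and 15.2, 12.5, 18.8 and 20.4 CPM in non-Hoxb8 libraries. Lyz2 and Nr4a1, an orphan nuclear receptor that is also an immediate early gene, made up most of the sum. Nr4a1 stood at 332.7 CPM in Hoxb8 replicate 2, at 256.9 CPM in non-Hoxb8 replicate 2 and at most at 44.65 CPM elsewhere. Only non-Hoxb8 replicate 2 had a sum within the Hoxb8 range, and Nr4a1 gave 256.9 of its 455 CPM. Ly6c2, a marker of classical monocytes, had 0 counts in all 3 Hoxb8 libraries, and 26, 0, 0 and 0 in non-Hoxb8 libraries. Treml4, a marker of non-classical monocytes, had 57, 28 and 12 counts in Hoxb8 libraries and 0 in all 4 non-Hoxb8 libraries. The part of border macrophages or monocytes in the levels of Itga4 and Itgal was not tested.

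Markers of further blood cells were counted in the same way. Of 11 lymphocyte markers 4 had a row, with sums of 3.74, 36.3 and 4.45 CPM in Hoxb8 libraries and between 0.321 and 5.08 CPM in non-Hoxb8 libraries, with up to 28.1 CPM of Cd4, which myeloid cells also express. Cd4, the 1 lymphocyte gene tested, was not called by edgeR, with or without pairs, or by DESeq2, and was higher at an unadjusted p below 0.05. The natural killer cell receptor Klrb1c had 2, 12 and 11 counts in Hoxb8 libraries and 1, 0, 0 and 0 in non-Hoxb8 libraries. The granzyme Gzma had 0, 28 and 10 counts in Hoxb8 libraries and 0 in all non-Hoxb8 libraries. Cd8a, a T cell co-receptor chain, had 0, 21 and 1 counts in Hoxb8 libraries and 0, 1, 0 and 0 in non-Hoxb8 libraries. The part of lymphocytes in the levels of Itga4 and Itgal was not tested. The neutrophil markers S100a8, S100a9 and Lcn2 had 5, 18 and 17 counts in Hoxb8 replicate 3 and 0 in the 6 other libraries. Ngp had 1, 0 and 4 counts in Hoxb8 libraries and 1, 0, 0 and 1 in non-Hoxb8 libraries. The list's sum came nearly all from Csf3r, at 593.5 to 642 CPM in Hoxb8 libraries and 627 to 746 CPM in non-Hoxb8 libraries. Of 7 tested dendritic cell genes edgeR called 1 higher, Cd209a, with and without pairs, and 0 lower. At an unadjusted p below 0.05, 1 lay in each direction. Cd209a stood at 8.02, 54.9 and 6.87 CPM in Hoxb8 libraries and 0.137, 0, 0.481 and 0 CPM in non-Hoxb8 libraries. DESeq2 gave Cd209a no adjusted p and called 1 gene lower, the inhibitory receptor Btla, beside 0.0337% of all tested genes called lower. Btla stood at 0.267, 0.270 and 0.135 CPM in Hoxb8 libraries and 6.04, 2.17, 13.95 and 2.06 CPM in non-Hoxb8 libraries. The parts of neutrophils and dendritic cells in the levels of Itga4 and Itgal were not tested. The platelet, endothelial and mural, and neuron and macroglia lists had 0 called genes in edgeR, with or without pairs, and in DESeq2, and 0 at an unadjusted p below 0.05.

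**Figure D4:**
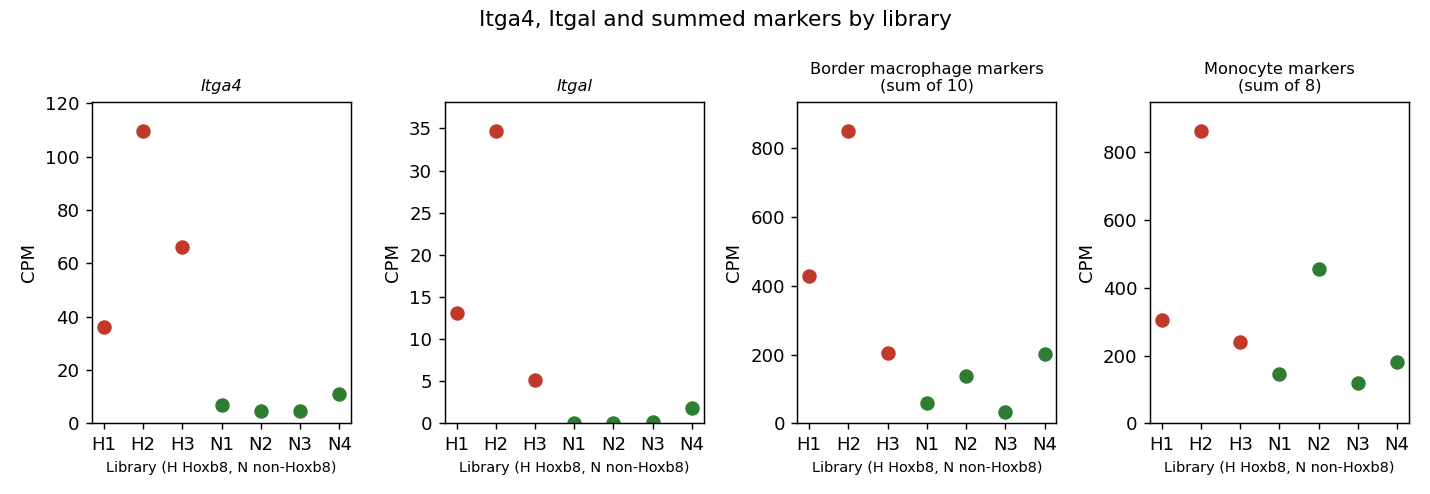
CPM of Itga4 and Itgal and summed CPM of border macrophage and monocyte markers in each library (H for Hoxb8, N for non-Hoxb8, followed by the replicate number), on linear axes from 0. All 4 measures are highest in Hoxb8 replicate 2, and the order of Hoxb8 replicates 1 and 3 differs between Itga4 and the other 3. Among non-Hoxb8 libraries, replicate 4 is highest for Itga4, Itgal and the border macrophage sum, and replicate 2 for the monocyte sum.

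The genes most like Itga4 over the 7 libraries, by the root mean square difference of log2 CPM after subtracting each gene's mean, were H2-Ab1 (0.609), Clec4a1 (0.670), Myof (0.730), Cd300ld (0.789) and Pkmyt1 (0.818). None of the 5 overlapped between groups, which the measure favours for a gene with this difference. On deviations from the group means the closest were Plin2 (0.119), Diexf (0.158), Gpaa1 (0.159), Lsm12 (0.162) and Lsm1 (0.194). The 2 lists share no gene, and both describe 7 libraries only.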

How the data were processed

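RNA from 7 libraries of sorted cortical microglia was read as 50 bp single-end reads without strand and mapped by the authors with STAR 2.4.1c to GRCm38 with Gencode release M5, per the labels' protocols. Besides STAR, featureCounts, Subread and DESeq2 appear in the submitters' processing notes. What was deposited is a table of raw counts with 1 row per symbol. Of 14616 rows, 22 named by dates and at most 0.151% of counts were left out, which left 14594. Counting error limits genes of few reads, and reads carry no molecular identifiers, so limits cover counting error only.

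Groups follow the label for the sorted population. The test was edgeR 4.0.16 under R 4.3.3 (filterByExpr, TMM, robust glmQLFit, Benjamini-Hochberg at 0.05), with no term for the animal. The SE is the log2 fold change over the square root of F. CPM use TMM factors, and lengths come from GENCODE M21. The test was checked on simulated counts. DESeq2 1.42.0, limma-voom (limma 3.58.1), other normalisations and filters, and libraries left out were the alternatives.

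Libraries with adjacent numbers were taken as possible pairs because their deviations from group means correlated at 0.182 (5 and 6), 0.276 (13 and 14) and 0.189 (21 and 22) across genes, each over 0.1. The labels do not state the pairs, and library 25 adds nothing to that fit's difference. The 10 chains and all lists were chosen with earlier results of these data known. Named genes are the 10 chains, the other integrin chains, the called and the 3 most abundant tested genes of each list, and the genes closest to Itga4. Vcam1, the lymphocyte genes, the neutrophil genes of few counts and the markers at 0 were named after their values were seen. A further gene within that rule is left out of the text.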

Additional observations from a re-analysis of the deposited data

Results flagged for a closer look

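Itgav in the 4 non-Hoxb8 libraries had 1 value far from the other 3. Non-Hoxb8 replicate 3 stood at 410.0 CPM, against 479.9 to 481 CPM in the others, and its gap to the nearest was 0.984 of the group's range on the log2 scale. Of the 10 chains examined in this way, 1 was found, and chance flags about 1 in 20 groups of this size.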

How the results depend on the processing

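The count of genes called higher was 4. It was 20 in DESeq2, 0 in limma-voom, 43 with the replicate block in edgeR and 49 in DESeq2, 2 with libraries 13 and 14 left out (31 with the block, an alternative chosen after seeing the data) and 0 with libraries 21, 22 and 25 left out. The count called lower, 0, became 4 in DESeq2, 2 in DESeq2 with the block and 7 with the block and libraries 13 and 14 left out. The 1 integrin chain called higher became 2 in the 3 fits with the block and 0 in limma-voom and with libraries 13 and 14 or 21, 22 and 25 left out. Leaving out each library in turn gave 0 to 6 genes higher, 0 lower, 0 to 2 integrin chains higher and 0 chains lower, with 0 without non-Hoxb8 replicate 1. The genes called in the 5 integrin pathway lists, 0, became 1 in DESeq2 and in each fit with the block. That gene was Cd36 in DESeq2 without the block and in edgeR with the block over all libraries. In all 18 alternatives Itga4 and Itgal were above 0 and Itgb1 and Itgav below 0, while Itgb7, Itgam, Itgb2, Itgax, Itgb5 and Itga6 crossed 0 in at least 1. Itgal ranged from 3.74 to 10.5. The 10.5 came with libraries 21, 22 and 25 left out. The non-Hoxb8 libraries then left, 5 and 13, held 0 Itgal counts, so the size of that value is not measured. With 12 counts over the 4 non-Hoxb8 libraries, counting error limits Itgal most. The cause of these differences was not tested.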
